A study of Homo sapiens with 9 samples.

Results

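6 arrays of the series, 3 of cells carrying the second STOML2 hairpin (sh2) and 3 of cells carrying the first (sh1), were compared with each other, out of 9 arrays in all. The comparison covered the 17709 rows of the deposited table that carry 1 gene symbol, out of 21448 rows. STOML2 encodes stomatin-like protein 2, abbreviated SLP-2 in the labels, and both hairpins target it, so the comparison asks how cells with the same target reduced differ in expression state. All cells were of the AsPC-1 line, an established human line derived from pancreatic adenocarcinoma. The control cells received the blank pBAsi-hU6 NEO plasmid, sh1 cells that plasmid with shRNA-1 of SLP-2, and sh2 cells the plasmid with shRNA-2 of SLP-2, and Geneticin was applied to all of them for 3 weeks. Each group was then grown from 1 single colony and measured with 3 arrays, from 100 ng of total RNA an array. A difference between sh2 and sh1 is therefore a difference between 2 clones, in which the hairpin and the clone cannot be told apart. The labels do not tell whether separate cultures lie behind the 3 arrays of a clone, and p-values therefore measure array-to-array spread that may be technical only.

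STOML2 lies in the inner mitochondrial membrane, where it belongs to the stomatin and prohibitin family and takes part in organising respiratory complexes and inner membrane proteases. Carcinoma cells hold an epithelial state with E-cadherin junctions, desmosomes and tight junctions to differing degrees. Transcription factors such as ZEB1 repress genes of that state, while splicing regulators such as ESRP1 keep epithelial isoforms. Cells of 1 tumour line can occupy different positions between epithelial and mesenchymal states, and a single colony carries on the position of its founder cell together with any chromosome changes that the founder had.

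Array medians of the log2 signal lay between 6.57 and 6.65. Across rows, signals correlated at r = 0.994 to 0.996 between sh1 arrays, at 0.994 to 0.995 between sh2 arrays and at 0.986 to 0.988 between an sh1 and an sh2 array. Keratins of ductal carcinoma cells were strongly measured in every array, with KRT8 at 16.12 to 16.97 and KRT18 at 13.23 to 14.79. EPCAM was at 8.81 to 13.98. The mesenchymal filament gene VIM was also strongly measured in every array, at 15.59 to 16.53. Endothelial, leukocyte, fibroblast, acinar, endocrine and neural marker lists had mean levels between 4.27 and 5.41 in all 9 arrays, near the lower quartile of the row means, 4.21, which served as a proxy for signals near background. The endothelial marker PECAM1 was at 2.99 to 4.24, the leukocyte marker PTPRC at 3.62 to 4.73 and the fibroblast marker DCN at 3.89 to 4.55. Of their 54 measured entries 6 were called between the clones, CD68, PNLIP and SNAP25 as higher and THY1, PAX6 and MAP2 as lower in sh2. Because RNA came from whole cultures, fewer cells expressing a gene and less RNA per cell cannot be told apart.

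The clones differed at 2186 of the 17709 rows (12.3%) at a Benjamini-Hochberg adjusted p under 0.05 in the limma fit over all 9 arrays. Of these, 1118 (6.31%) were higher in sh2 and 1068 (6.03%) lower. A row that passed is named called in what follows. Among the 9366 expressed genes with a position, those with a mean above 6.61, 1751 were called (18.7%). Shares of list members called are to be read against this share and the 12.3% of all rows. At a difference of at least 2-fold, 700 rows (3.95%) were called, with 408 higher (2.30%) and 292 lower (1.65%). The median difference over all rows with a symbol was -0.01 on the log2 scale and the median size among called rows was 0.79. In 5078 rows (28.7%) the 3 sh1 arrays and the 3 sh2 arrays did not overlap. Leaving out each of the 6 arrays in turn kept 1314 of the calls (60.1%) in every fit, and 680 of the 700 calls of at least 2-fold (97.1%). The plot of difference against mean signal shows that the widest differences lay among genes of middle signal.

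**Figure D1:**
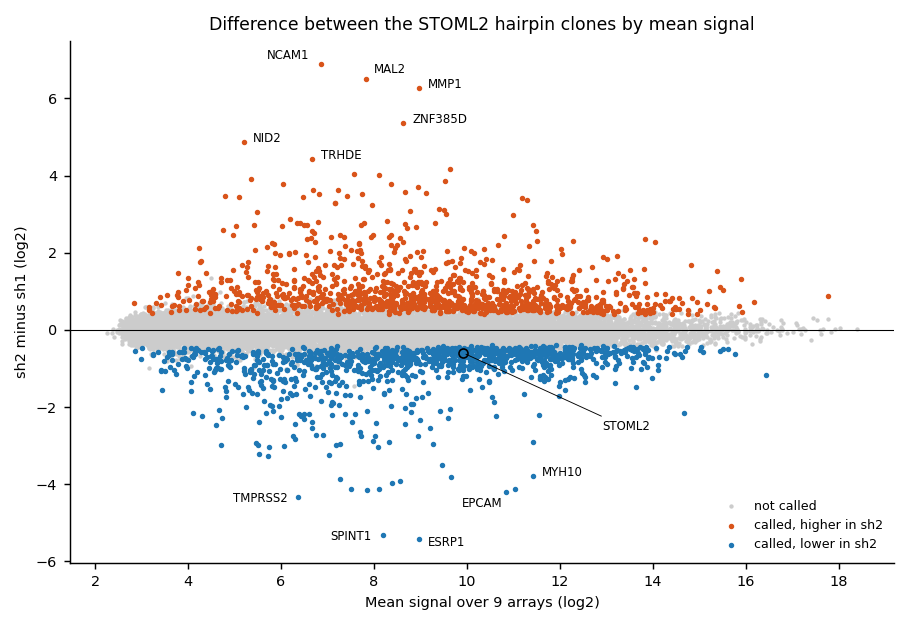
Difference between sh2 and sh1 (log2, vertical) against the mean signal over 9 arrays (log2, horizontal) for rows with 1 gene symbol. Orange points are the 1118 rows called higher in sh2, blue points the 1068 called lower and grey points rows not called; NCAM1 at 6.88 and ESRP1 at -5.41 mark the extremes, and the circle is STOML2.

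STOML2 itself (GRCh38.p14, chromosome 9, 35099776 to 35103195) had signals of 13.70, 13.66 and 13.65 in the control arrays, 8.36, 8.42 and 8.18 in sh1 and 7.85, 7.99 and 7.35 in sh2. Both clones lay far under the control, the arrays of the clones did not overlap, and sh2 was the lower of the clones. The difference was -0.59 ± 0.16 (SE, adjusted p = 0.0394), or 1.51-fold. The call held without sh2 array 2 (-0.72) but was lost without any other single array of the clones, with differences of -0.66 to -0.40 and adjusted p of 0.0548 to 0.113, and with only the 6 clone arrays in the fit (adjusted p = 0.0852). Among the measured members, STOML2 included, of a list of the stomatin family, prohibitins and inner membrane proteases, 1 of 12 was called higher, the protease YME1L1 (1.31 ± 0.12 SE, adjusted p = 2.81e-05), and STOML2 was the 1 called lower. The prohibitin PHB1 differed by -0.22 (95% confidence interval -0.52 to 0.07), and the processing proteases OMA1 and PARL differed by 0.26 and 0.15 without a call. YME1L1 lies on the short arm of chromosome 10, where neighbouring genes differed by a median of 1.08, and the part of the region in its difference was not tested.

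Genes of epithelial junctions and identity were mostly lower in sh2 where they differed. Of 34 measured members of that list 13 were called lower and 2 higher, with a median of -0.23. This share of 44.1% stands against 12.3% of all rows and 18.7% of expressed genes. The epithelial splicing regulator ESRP1 led the lower members, followed by the membrane protease inhibitor SPINT1, the adhesion molecule EPCAM, the membrane protease ST14 and E-cadherin, CDH1. Desmosome genes, which anchor keratin filaments at cell contacts, had 5 of 14 called lower and 0 higher by limma (35.7%, 6 and 0 at an unadjusted p under 0.05), with a median of -0.30. The apical transport protein MAL2 and the keratin KRT19 were the 2 members of the epithelial list that were higher in sh2.

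For a part of these genes the proximal promoter was at hand in RefSeq, and the 250 bases before the annotated start are shown for 5 of them. These 5 were picked by hand and not by a rule. No promoter was at hand for ESRP1, EPCAM, ST14, CDH1 and PKP2. The E-box CACCTG is marked, a hexamer that the repressor ZEB1 binds. Capitals mark CACCTG read on either strand (CAGGTG where the other strand holds it), and bases run 5′ to 3′ along the strand of the gene in GRCh38.p14.
DSP, chr6:7541421-7541670, plus strand: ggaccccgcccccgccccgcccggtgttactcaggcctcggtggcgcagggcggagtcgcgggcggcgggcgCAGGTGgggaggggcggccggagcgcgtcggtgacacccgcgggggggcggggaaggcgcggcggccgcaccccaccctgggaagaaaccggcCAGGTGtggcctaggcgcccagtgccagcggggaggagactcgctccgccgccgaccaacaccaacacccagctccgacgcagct
DSG2, chr18:31497927-31498176, plus strand: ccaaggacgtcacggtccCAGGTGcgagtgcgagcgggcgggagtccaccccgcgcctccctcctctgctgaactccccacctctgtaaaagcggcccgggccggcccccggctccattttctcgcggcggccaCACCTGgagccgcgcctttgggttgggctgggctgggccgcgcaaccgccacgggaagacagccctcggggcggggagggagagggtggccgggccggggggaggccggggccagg
DSC2, chr18:31102422-31102671, minus strand: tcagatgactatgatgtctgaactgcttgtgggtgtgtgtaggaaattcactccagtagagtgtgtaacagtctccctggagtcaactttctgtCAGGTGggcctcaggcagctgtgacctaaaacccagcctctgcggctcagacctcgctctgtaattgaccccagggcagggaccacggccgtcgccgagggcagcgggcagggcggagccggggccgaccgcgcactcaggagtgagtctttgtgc
OCLN, chr5:69492297-69492546, plus strand: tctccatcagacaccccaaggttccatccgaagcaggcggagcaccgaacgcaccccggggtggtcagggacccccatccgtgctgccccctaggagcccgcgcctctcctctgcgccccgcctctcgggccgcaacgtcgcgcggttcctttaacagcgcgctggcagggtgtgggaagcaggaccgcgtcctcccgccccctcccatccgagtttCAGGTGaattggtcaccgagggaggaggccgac
SPINT1, chr15:40843798-40844047, plus strand: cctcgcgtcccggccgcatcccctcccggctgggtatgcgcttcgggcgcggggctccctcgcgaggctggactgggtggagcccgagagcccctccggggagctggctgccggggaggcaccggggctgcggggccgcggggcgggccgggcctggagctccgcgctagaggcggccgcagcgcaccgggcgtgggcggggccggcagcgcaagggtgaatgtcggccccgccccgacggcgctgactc
DSP holds the hexamer 178 and 85 bases before its start, DSG2 232 and 116 bases before, DSC2 156 bases before and OCLN 33 bases before, while the SPINT1 window holds none. Of 27305 RefSeq promoters of this length, 4781 (17.5%) hold it, and of the called-lower members of both lists with a promoter at hand it was 6 of 12 (50%), against 4 of 17 (23.5%) of the members not called. These matches are a description of letters and say nothing of binding, and a part of ZEB1 in the differences was not tested.

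ESRP1, which keeps epithelial exons in many transcripts, had signals of 4.27, 5.01 and 4.36 in the control arrays, 13.68, 14.08 and 13.90 in sh1 and 8.37, 8.51 and 8.54 in sh2. All 3 sh1 arrays lay above all 3 sh2 arrays, which in turn lay above the control. The difference of -5.41 ± 0.19 (SE, adjusted p = 2.24e-08) corresponded to 42.6-fold. EPCAM read 8.90, 8.81 and 9.11 in the control arrays, 13.83, 13.98 and 13.83 in sh1 and 9.66, 9.50 and 9.87 in sh2. Here sh2 lay nearer the control and sh1 stood apart, with a difference between the clones of -4.20 ± 0.14 (SE, adjusted p = 1.92e-08). For CDH1, the core of adherens junctions, signals were 8.58, 8.71 and 8.83 in the control arrays, 10.61, 10.62 and 10.99 in sh1 and 8.09, 8.43 and 8.04 in sh2. The sh2 arrays lay below all control arrays and the sh1 arrays above them, and the clones differed by -2.55 ± 0.16 (SE, adjusted p = 1.1e-06). Among tight junction genes, the tricellular junction component LSR read 12.28, 12.27 and 12.11 in sh1 and 10.24, 10.13 and 9.63 in sh2, a difference of -2.22 ± 0.19 (SE, adjusted p = 1.62e-05). MARVELD2 and OCLN, the MARVEL proteins tricellulin and occludin, were lower by smaller amounts, -0.91 ± 0.16 (SE, adjusted p = 0.00329) and -0.90 ± 0.13 (SE, adjusted p = 0.000688). Both lie on chromosome 5, where their expressed neighbours differed by a median of -0.29. The phospholipid enzyme CDS1 was lower at -1.33 ± 0.14 (SE, adjusted p = 6.92e-05). ELF3, CLDN3, CGN and OVOL2 were also called lower, but each lost its call without at least 1 single array, with adjusted p up to 0.167.

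The desmosome members that differed were plaque proteins and cadherins. PKP2, a plaque armadillo protein, read 4.98, 5.83 and 4.86 in the control arrays, 12.26, 12.18 and 12.14 in sh1 and 8.18, 8.10 and 8.53 in sh2. Its sh1 arrays lay far above both other groups and sh2 above the control, with a difference between clones of -3.92 ± 0.23 (SE, adjusted p = 7.45e-07). DSP, which links the plaque to keratin filaments, read 8.83, 8.84 and 9.19 in the control arrays, 11.77, 12.07 and 11.90 in sh1 and 8.22, 7.90 and 8.22 in sh2. The sh2 arrays lay below all control arrays and the sh1 arrays above them, and the clones differed by -3.80 ± 0.15 (SE, adjusted p = 4.71e-08). The desmosomal cadherins ran in another order. DSC2 read 10.62, 10.26 and 10.79 in the control arrays, 8.11, 8.10 and 8.16 in sh1 and 5.49, 5.49 and 5.13 in sh2, so both clones lay under the control and sh2 furthest under it, at a difference of -2.75 ± 0.16 (SE, adjusted p = 7.78e-07). DSG2, its neighbour on chromosome 18, followed the same order at 9.51, 9.20 and 9.73 in sh1 and 7.15, 7.10 and 7.19 in sh2, a difference of -2.33 ± 0.16 (SE, adjusted p = 2.38e-06). JUP, plakoglobin, differed by -1.07 ± 0.15 (SE, adjusted p = 0.000655). The 9 members that were not called included PERP, at -0.05 (95% confidence interval -0.38 to 0.28), and 3 members with a mean at or under the lower quartile in all groups. Without rows in the lower quartile the desmosome median was -0.73. The epithelial median was -0.14 without sh1 array 2.

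MAL2, a tetraspan protein of apical transport, went the opposite way, with signals of 3.65, 3.25 and 3.52 in the control arrays, 6.76, 6.81 and 6.71 in sh1 and 13.41, 13.30 and 13.10 in sh2. The 3 sh2 arrays lay above sh1 and sh1 above the control, and the clones differed by 6.51 ± 0.14 (SE, adjusted p = 6.3e-10), or 91.1-fold. KRT19, a ductal keratin, read 14.68, 14.13 and 14.68 in sh1 and 15.71, 15.59 and 15.56 in sh2, higher in sh2 by 1.12 ± 0.16 (SE, adjusted p = 0.000624). Other members of the list gave no call. KRT8 differed by -0.01 (95% confidence interval -0.26 to 0.24), CLDN1 by -0.03 (-0.30 to 0.24) and CLDN4 by -0.23 (-0.69 to 0.22). The epithelial transcription factor GRHL2 differed by -0.23 (-0.58 to 0.12).

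Mesenchymal genes did not shift as a list. Of 30 measured members 6 were called higher in sh2 and 3 lower, and their median was 0.03. This share of 30% stands against 12.3% of all rows and 18.7% of expressed genes. S100A4, a calcium-binding protein often used as a mesenchymal marker, showed the widest difference, with signals of 11.28, 11.05 and 10.90 in the control arrays, 6.90, 6.99 and 7.59 in sh1 and 10.49, 10.45 and 9.85 in sh2. The sh2 arrays lay under the control and the sh1 arrays far under it, a difference of 3.10 ± 0.22 (SE, adjusted p = 3.1e-06). ZEB1, the E-box repressor, read 11.73, 11.69 and 11.68 in the control arrays, 10.11, 10.22 and 9.88 in sh1 and 11.62, 11.62 and 11.60 in sh2. Here sh2 lay just under the control and sh1 further down, with 1.54 ± 0.12 (SE, adjusted p = 8.36e-06). VIM, the intermediate filament vimentin, differed by 0.72 ± 0.12 (SE, adjusted p = 0.00226), and MSN, moesin, a linker of actin to the membrane, by 0.76 ± 0.14 (SE, adjusted p = 0.00343). ZEB1 and VIM lie on the short arm of chromosome 10, where 40 expressed neighbours of each differed by medians of 0.98 and 1.11. ZEB1 stood 0.56 from that median and VIM -0.39, and the part of the region in either difference was not tested. In the other direction, N-cadherin, CDH2, read 11.93, 11.85 and 11.98 in the control arrays, 7.18, 6.57 and 6.68 in sh1 and 5.64, 5.82 and 6.05 in sh2, lower in sh2 by a difference of -0.97 ± 0.17 (SE, adjusted p = 0.00323), with both clones far under the control. The surface protein THY1, also on the fibroblast list, differed by -0.76 ± 0.15 (SE, adjusted p = 0.00536). TWIST2 and TCF4 were called higher and COL5A1 lower, and each lost its call without at least 1 array (adjusted p up to 0.163). Among regulators of the transition that were not called, SNAI1 differed by 0.02 (95% confidence interval -0.31 to 0.35), SNAI2 by 0.03 (-0.43 to 0.49) and ZEB2 by 0.25 (-0.05 to 0.55). On a list of 15 splicing regulators with an epithelial or mesenchymal bias, ESRP1 was the 1 called lower, and PTBP2, a polypyrimidine tract binding protein, the 1 called higher at 0.92 ± 0.15 (SE, adjusted p = 0.00149). RBFOX2 differed by 0.41 (adjusted p = 0.0607) and QKI by -0.11.

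**Figure D2:**
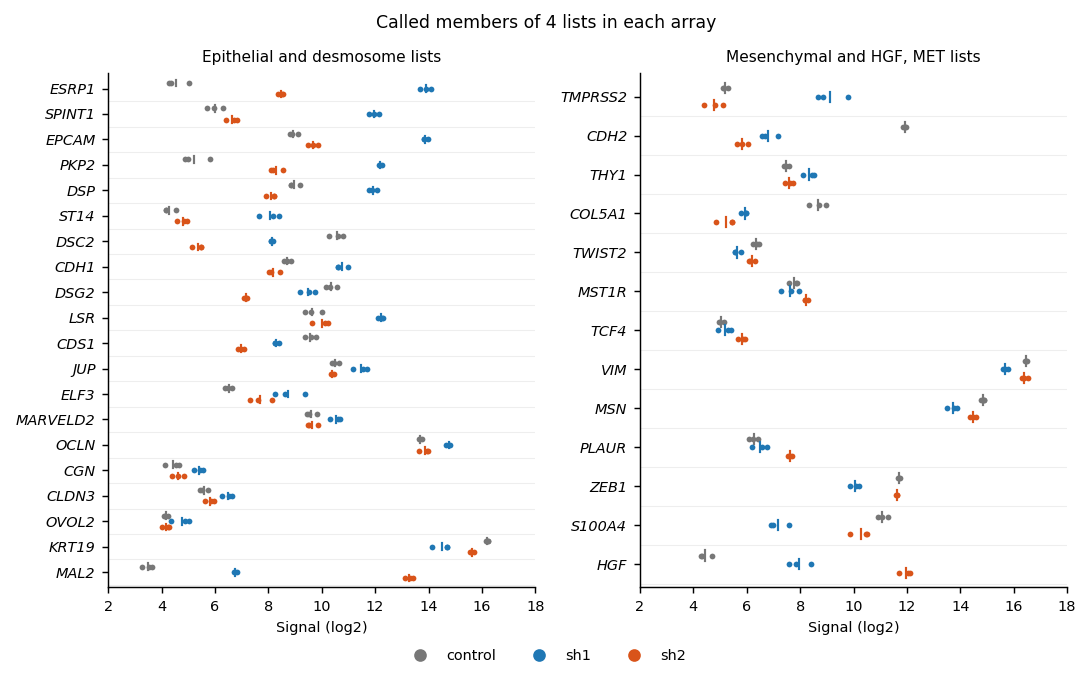
Log2 signal (horizontal) in each array of the called members of the epithelial and desmosome lists (left) and of the mesenchymal and HGF lists (right); points are arrays, short vertical lines are means of 3 arrays and colours give the group. In the left panel sh1 stands above sh2 for every gene except MAL2 and KRT19, and for EPCAM, LSR and OCLN sh2 lies near the control.

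The system of hepatocyte growth factor (HGF), its receptor MET and the membrane proteases that activate the ligand was split. HGF and 2 other members were called higher in sh2 and 3 lower, out of 19 measured (31.6%, median 0.02). The shares of all rows and of expressed genes were 12.3% and 18.7%. The ligand gene HGF read 4.30, 4.71 and 4.31 in the control arrays, 8.41, 7.57 and 7.85 in sh1 and 11.71, 12.12 and 12.03 in sh2. Its signal was lowest in the control, higher in sh1 and highest in sh2, where the arrays did not overlap with sh1, and the clones differed by 4.01 ± 0.21 (SE, adjusted p = 3.73e-07). MET, the receptor, read 12.52, 12.40 and 12.48 in sh1 and 12.24, 12.37 and 12.62 in sh2, a difference of -0.06 (95% confidence interval -0.37 to 0.26). The activating protease matriptase, ST14, read 4.53, 4.15 and 4.18 in the control arrays, 8.18, 7.64 and 8.41 in sh1 and 4.97, 4.59 and 4.84 in sh2. In sh2 it was near the control, and the clones differed by -3.28 ± 0.20 (SE, adjusted p = 1.08e-06). TMPRSS2, a related membrane serine protease, read 5.29, 5.14 and 5.12 in the control arrays, 8.84, 9.78 and 8.68 in sh1 and 4.40, 4.82 and 5.12 in sh2, again near the control in sh2, with a difference of -4.32 ± 0.26 (SE, adjusted p = 1.1e-06). SPINT1, the Kunitz inhibitor of matriptase and of HGF activator, read 5.70, 5.96 and 6.30 in the control arrays, 11.76, 11.95 and 12.14 in sh1 and 6.71, 6.82 and 6.40 in sh2. The difference was -5.31 ± 0.18 (SE, adjusted p = 1.92e-08), on chromosome 15, where neighbours differed by a median of -0.54. SPINT2, the second inhibitor of this kind, differed by -0.09 (95% confidence interval -0.38 to 0.21). The urokinase receptor PLAUR was higher in sh2 at 1.11 ± 0.16 (SE, adjusted p = 0.000688). MST1R, the receptor related to MET, was called higher at 0.59 and lost the call without 5 of the 6 arrays in turn, sh1 array 1 being the exception (adjusted p up to 0.129). In this system the ligand and the epithelial proteases thus differed in opposite directions while the receptor did not pass.

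The genes with the widest differences in favour of sh2 were of several kinds. NCAM1, a neural cell adhesion molecule of the immunoglobulin family on chromosome 11 (112961420 to 113278436), read 5.53, 5.58 and 5.47 in the control arrays, 4.30, 4.17 and 3.75 in sh1 and 10.79, 10.94 and 11.13 in sh2. All sh2 arrays stood above the control arrays and all sh1 arrays beneath them, and the clones differed by 6.88 ± 0.16 (SE, adjusted p = 6.58e-10). LSAMP, another adhesion molecule of this family, read 4.05, 4.22 and 3.53 in sh1 and 7.55, 8.03 and 7.96 in sh2 and differed by 3.91 ± 0.22 (SE, adjusted p = 6.76e-07). The sh1 arrays of NCAM1 and of LSAMP lay around the lower quartile of 4.21, so the background may bound the size of both differences and no fold is given for them. ZNF385D, a zinc finger protein gene, read 9.16, 9.12 and 8.82 in the control arrays, 6.10, 5.75 and 5.39 in sh1 and 11.04, 11.05 and 11.22 in sh2. Here too the clones lay on opposite sides of the control, with 5.36 ± 0.18 (SE, adjusted p = 1.92e-08) between them. SYT1, a calcium sensor of vesicle release, read 8.10, 8.0 and 8.20 in sh1 and 12.12, 12.43 and 12.30 in sh2 and differed by 4.18 ± 0.16 (SE, adjusted p = 4.21e-08), and SYT9, of the same synaptotagmin family, differed by 3.79 ± 0.16 (SE, adjusted p = 8.87e-08). TRHDE, a membrane peptidase, read 9.51, 9.24 and 9.42 in the control arrays, 3.54, 2.68 and 3.04 in sh1 and 7.29, 7.67 and 7.57 in sh2. Its sh1 arrays lay under the lower quartile and its sh2 arrays under the control, and the clones differed by 4.42 ± 0.20 (SE, adjusted p = 1.18e-07). TGFBR3, the coreceptor betaglycan, read 6.47, 5.87 and 6.56 in the control arrays, 6.13, 6.17 and 6.22 in sh1 and 10.04, 10.41 and 10.19 in sh2. Sh1 lay within the range of the control and sh2 above it, with a difference of 4.04 ± 0.18 (SE, adjusted p = 1.03e-07).

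The remaining genes of the upper 15 included enzymes and secreted factors. APOBEC3B, a DNA cytidine deaminase, read 9.98, 10.08 and 9.91 in the control arrays, 7.47, 7.25 and 7.33 in sh1 and 11.40, 10.83 and 11.41 in sh2, lower than the control in sh1 and higher in sh2, with 3.86 ± 0.16 (SE, adjusted p = 8.25e-08) between the clones. APOBEC3B belongs to a cluster of similar genes, so its probes may also take up RNA of its relatives. DPYD, which degrades pyrimidines and fluorouracil, read 7.64, 7.48 and 7.82 in sh1 and 11.20, 11.40 and 11.42 in sh2 and differed by 3.69 ± 0.17 (SE, adjusted p = 1.23e-07). TNFRSF11B, the decoy receptor osteoprotegerin, read 4.70, 5.41 and 4.99 in sh1 and 8.74, 8.86 and 8.82 in sh2 and differed by 3.77 ± 0.17 (SE, adjusted p = 1.03e-07). The transcription factor ETV1 of the ETS family read 6.29, 6.41 and 5.77 in sh1 and 10, 9.58 and 9.80 in sh2 and differed by 3.64 ± 0.19 (SE, adjusted p = 3.73e-07). In each of these 3 the control arrays lay closer to sh1 than to sh2.

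Among the 15 genes with the widest differences in favour of sh1, beside the epithelial genes above, MAP2 and MYH10 belong to the cytoskeleton. MAP2, a microtubule-associated protein of neurons, read 12.18, 12.18 and 12.21 in the control arrays, 12.35, 12.71 and 12.46 in sh1 and 8.69, 8.18 and 8.32 in sh2. Sh1 lay just above the control and sh2 far under both, a difference of -4.11 ± 0.15 (SE, adjusted p = 3.16e-08). MYH10, non-muscle myosin heavy chain IIB, read 11.36, 11.52 and 11.67 in the control arrays, 13.19, 13.26 and 13.34 in sh1 and 9.29, 9.22 and 9.89 in sh2, with the clones on opposite sides of the control and -3.80 ± 0.18 (SE, adjusted p = 1.23e-07) between them. NEO1, neogenin, a receptor of netrins and repulsive guidance molecules on chromosome 15, read 6.25, 6.11 and 6.25 in the control arrays, 11.33, 11.76 and 11.31 in sh1 and 7.60, 7.42 and 7.48 in sh2. Both clones lay above the control and sh1 highest, with -3.97 ± 0.15 (SE, adjusted p = 2.57e-08). DSE, dermatan sulfate epimerase, read 6.83, 7.05 and 7.19 in the control arrays, 9.64, 9.98 and 9.78 in sh1 and 5.65, 5.46 and 5.91 in sh2 and differed by -4.13 ± 0.16 (SE, adjusted p = 3.54e-08). ATRNL1, attractin-like protein, differed by -4.12 ± 0.18 (SE, adjusted p = 9.61e-08) and MCOLN3, a cation channel of endolysosomes, by -3.87 ± 0.25 (SE, adjusted p = 1.71e-06). For DSE, ATRNL1 and MCOLN3 all sh1 arrays lay above the control arrays and all sh2 arrays below. CD24, a surface glycoprotein, read 11.63, 11.48 and 11.49 in the control arrays, 10.22, 10.07 and 10.22 in sh1 and 7.14, 6.16 and 6.70 in sh2, with both clones under the control and a difference of -3.50 ± 0.20 (SE, adjusted p = 7.94e-07). CD24 has near-identical copies in the genome, so its value is uncertain.

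**Figure D3:**
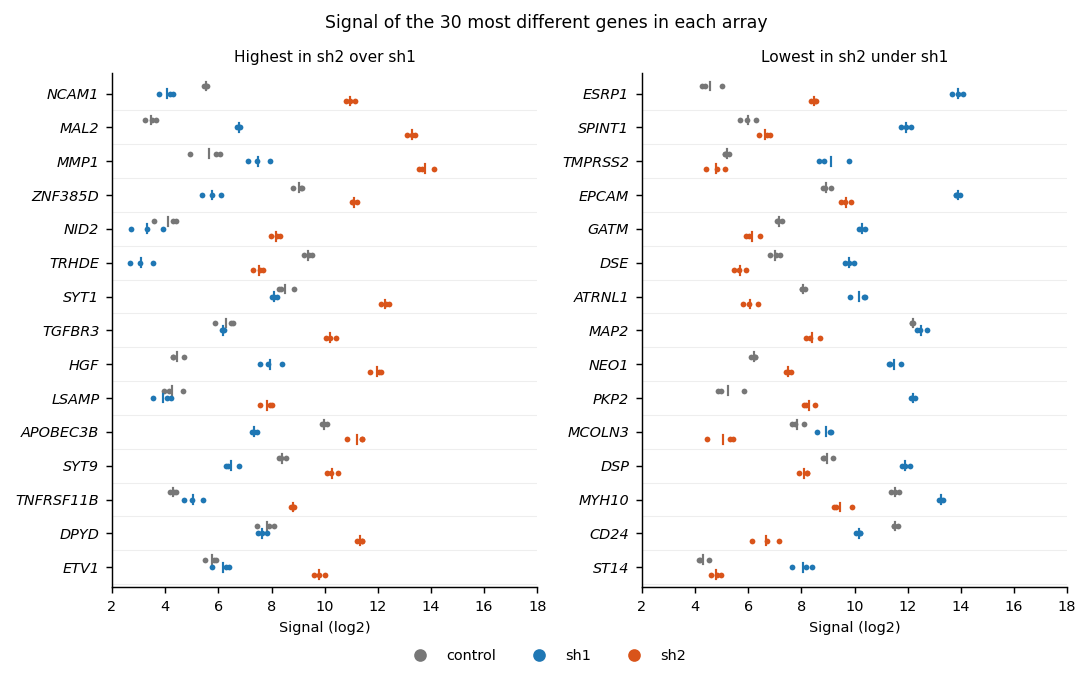
Log2 signal (horizontal) in each array of the 15 genes with the widest differences toward sh2 (left) and the 15 toward sh1 (right); points are arrays, short vertical lines are means of 3 arrays and colours give the group. No gene shows an overlap of sh1 and sh2 arrays, and in 12 of the 30 the control arrays lie between the clones, as for NCAM1, GATM and DSP.

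Matrix proteases and inhibitors were called higher in sh2 more often than lower, 7 of 33 against 1 (24.2%, median 0.14). MMP1, interstitial collagenase (chromosome 11, 102789919 to 102798160), read 6.06, 5.91 and 4.95 in the control arrays, 7.93, 7.11 and 7.45 in sh1 and 14.10, 13.56 and 13.67 in sh2. Its sh2 arrays lay above every other array, and the clones differed by 6.28 ± 0.29 (SE, adjusted p = 1.18e-07), or 77.7-fold. MMP2, a gelatinase, read 13.62, 13.55 and 13.60 in sh1 and 14.18, 14.12 and 14.10 in sh2 and differed by 0.54 ± 0.12 (SE, adjusted p = 0.00949), with both clones under the control. ADAMTS15, a proteoglycan-cleaving protease, differed by 1.84 ± 0.29 (SE, adjusted p = 0.00157), and TIMP1, a secreted inhibitor of matrix metalloproteinases, by 1.27 ± 0.18 (SE, adjusted p = 0.000636). MMP24, a membrane-type enzyme, was the 1 called lower, at -1.32 ± 0.16 (SE, adjusted p = 0.000167). Protease and inhibitor genes were thus both among the higher ones.

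Integrins were called higher in sh2 more often than lower, while basement membrane genes were called in both directions. Of 19 integrin subunits 6 were called higher and 1 lower (36.8%), with a median of 0.26. The shares of all rows and of expressed genes were 12.3% and 18.7%. ITGA2, the collagen-binding alpha subunit, read 13.06, 13.18 and 13.36 in the control arrays, 12.14, 12.23 and 12.47 in sh1 and 14.03, 14.22 and 14.36 in sh2. Sh2 was above and sh1 below the control, at a difference of 1.92 ± 0.15 (SE, adjusted p = 5.11e-06). ITGB8, a subunit that activates latent TGF-beta, read 6.34, 6.43 and 6.43 in sh1 and 8.07, 8.49 and 8.01 in sh2 and differed by 1.79 ± 0.17 (SE, adjusted p = 2.83e-05). ITGB1, the common beta subunit, read 16.30, 16.23 and 16.30 in the control arrays, 15.07, 14.93 and 15.14 in sh1 and 16.31, 16.32 and 16.45 in sh2, near the control in sh2, with 1.31 ± 0.12 (SE, adjusted p = 2.15e-05) between the clones. ITGB1 lies on the short arm of chromosome 10 among neighbours with a median of 0.98, and ITGB8 on chromosome 7 among neighbours with a median of 0.47. ITGA10 (1.31) and the laminin-binding ITGA6 (0.59) were higher as well, whereas the calls of ITGA5 and ITGB5 were lost without at least 1 array (adjusted p up to 0.159). Of 19 laminin and basement membrane genes 3 were called higher and 2 lower (26.3%). The nidogens, which link laminin to collagen IV networks, differed in opposite directions. NID2 read 3.57, 4.28 and 4.42 in the control arrays, 3.30, 2.72 and 3.90 in sh1 and 8.33, 7.99 and 8.22 in sh2, with sh1 under and the control arrays around the lower quartile, and differed by 4.87 ± 0.28 (SE, adjusted p = 7.94e-07). NID1 read 10.40, 10.22 and 10.32 in the control arrays, 14.29, 14.38 and 14.37 in sh1 and 13.11, 12.87 and 12.99 in sh2, above the control in both clones and highest in sh1, and differed by -1.36 ± 0.12 (SE, adjusted p = 2.02e-05). The laminin chain LAMA4 was higher at 1.54 ± 0.15 (SE, adjusted p = 4.67e-05) and perlecan, HSPG2, at 0.75 ± 0.15 (SE, adjusted p = 0.00667).

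Lists of cell-cell recognition genes are set here against calls in 12.3% of all rows and 18.7% of expressed genes. Of 28 cadherins and protocadherins 3 were called higher, PCDH7 (1.77), PCDH18 (1.43) and CDH18 (1.06), and 4 lower, CDH1, PCDH1 (-1.10), CDH2 and CDH3 (-0.86). These 7 calls were kept without any single array. CDH1, CDH2 and CDH3, cadherins of epithelial, neural and placental type, were thus all lower in sh2. Of 21 Eph receptors and ephrins 5 were called higher and 0 lower by limma (23.8%, 5 and 3 at an unadjusted p under 0.05), led by EPHB6, a receptor with an inactive kinase domain, at 5.85, 5.35 and 5.71 in sh1 and 8.98, 8.49 and 7.78 in sh2 and a difference of 2.78 ± 0.27 (SE, adjusted p = 3.69e-05). EPHA7 (0.96) and the ligand EFNB2 (0.82) followed. EPHA4 and EFNA5 lost their calls without at least 1 array (adjusted p up to 0.0967). Among 29 semaphorins, plexins and neuropilins 2 were called (6.9%), a share under that of all rows. The coreceptor NRP1 was higher (1.55 ± 0.14 SE, adjusted p = 2.1e-05) and the membrane-anchored ligand SEMA7A lower (-1.28 ± 0.22 SE, adjusted p = 0.00264). NRP1 lies on the short arm of chromosome 10 and SEMA7A on chromosome 15, with neighbour medians of 0.98 and -0.48.

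Feedback targets of the ERK pathway, genes that ERK signalling induces and that in part restrain it, were mostly higher in sh2 where they were called. Of 26 measured members 9 were called higher and 2 lower (42.3%), with a median of 0.40. The shares of all rows and of expressed genes were 12.3% and 18.7%. SPRY2, an inhibitor of receptor tyrosine kinase signalling, read 6.79, 6.75 and 6.64 in the control arrays, 7.13, 7.03 and 6.95 in sh1 and 9.14, 9.28 and 9.39 in sh2. Its sh1 arrays lay slightly above the control and its sh2 arrays well above both, at a difference of 2.23 ± 0.12 (SE, adjusted p = 5.38e-07). EMP1, a membrane protein, read 6.64, 7.11 and 6.70 in the control arrays, 5.48, 5.98 and 5.64 in sh1 and 8.90, 9.21 and 8.82 in sh2, with sh2 above and sh1 below the control and 3.28 ± 0.18 (SE, adjusted p = 4.95e-07) between them. DUSP1, a phosphatase of MAP kinases, read 10.98, 10.42 and 10.59 in the control arrays, 7.85, 7.92 and 7.76 in sh1 and 9.57, 9.31 and 9.40 in sh2. It was under the control in both clones and lowest in sh1, with a difference of 1.58 ± 0.16 (SE, adjusted p = 4.15e-05). SPRY4 was higher by 1.14 ± 0.17 (SE, adjusted p = 0.0012), and ETV1, given above, is a further member. Others gave no call, among them SPRY1 at -0.30 (95% confidence interval -0.74 to 0.14), DUSP6 at 0.59 (0.10 to 1.08, adjusted p = 0.128) and DUSP5 at 0.59 (0.20 to 0.98, adjusted p = 0.0541). CCND1, cyclin D1, was called lower at -0.58 ± 0.12 (SE, adjusted p = 0.00747). The calls of EPHA4 and ETV5 as higher and SPRED1 as lower were lost without at least 1 array (adjusted p up to 0.138).

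In the EGF family, ligands differed and the main receptor did not pass. Of 17 measured members 1 was called higher and 4 lower (29.4%, against 12.3% of all rows and 18.7% of expressed genes). EREG, epiregulin, read 6.04, 6.61 and 6.29 in the control arrays, 9.25, 9.61 and 9.21 in sh1 and 10.56, 10.23 and 10.71 in sh2, higher than the control in both clones and highest in sh2, at a difference of 1.14 ± 0.18 (SE, adjusted p = 0.00175). TGFA, transforming growth factor alpha, read 6.48, 6.48 and 6.85 in the control arrays, 8.51, 8.44 and 7.96 in sh1 and 6.39, 6.65 and 6.21 in sh2. Sh2 lay near the control and sh1 above it, with -1.89 ± 0.18 (SE, adjusted p = 3.69e-05). EGFR, their receptor, read 11.39, 11.28 and 11.14 in sh1 and 11.19, 11.28 and 11.37 in sh2, a difference of 0.01 (95% confidence interval -0.28 to 0.30). The calls of NRG2, NRG4 and ERBB3 as lower were lost without at least 1 array (adjusted p up to 0.159).

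The TGF-beta list had 5 of 26 measured members called higher and 4 lower (34.6%, median -0.02), and each of these calls was kept without any single array. The receptors differed in opposite directions. TGFBR1, the type I receptor, read 9.51, 9.61 and 10.04 in the control arrays, 9.21, 8.87 and 8.89 in sh1 and 7.35, 7.23 and 7.41 in sh2, lowest in sh2, with -1.66 ± 0.16 (SE, adjusted p = 3.95e-05), while the type II receptor TGFBR2 was higher at 0.59 ± 0.12 (SE, adjusted p = 0.00927). Together with the coreceptor TGFBR3 this made 2 of the receptors higher and 1 lower in sh2. The ligand gene TGFB1 was higher at 0.97 ± 0.16 (SE, adjusted p = 0.00189), INHBA, an activin subunit, at 1.95 ± 0.19 (SE, adjusted p = 3.59e-05), and LTBP2, a latent TGF-beta binding protein, at 2.27 ± 0.18 (SE, adjusted p = 7.09e-06). ID2, a target that BMP signals induce, was lower at -1.32 ± 0.22 (SE, adjusted p = 0.00248), and TPM1, tropomyosin, at -1.48 ± 0.14 (SE, adjusted p = 2.9e-05) on chromosome 15 (neighbour median -0.53). In the YAP and TEAD list of 19 measured genes 2 were called higher and 2 lower, with NT5E (1.04) and AMOTL1 (-2.17) the widest. This share was 21.1%, against 12.3% of all rows and 18.7% of expressed genes. The 2 standard targets CCN1 and CCN2 differed by -0.10 (95% confidence interval -0.70 to 0.49) and -0.32 (-0.85 to 0.21).

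WNT pathway genes were called in both directions, 6 of 40 higher and 6 lower (30%, median -0.08). The shares of all rows and of expressed genes were 12.3% and 18.7%. LGR4, a receptor of R-spondins that strengthens WNT signals, read 11.34, 11.44 and 11.24 in the control arrays, 10.45, 10.22 and 10.12 in sh1 and 12.53, 12.92 and 13.05 in sh2. Sh2 lay above and sh1 below the control, at 2.57 ± 0.16 (SE, adjusted p = 1.13e-06). TNIK, a kinase of the TCF and beta-catenin complex, read 4.28, 4.30 and 4.33 in the control arrays, 8.65, 8.48 and 8.67 in sh1 and 11.10, 11.04 and 11.03 in sh2, above the control in both clones and highest in sh2, at 2.46 ± 0.11 (SE, adjusted p = 1.23e-07). LEF1, a transcription factor of the pathway, differed by 1.31 ± 0.15 (SE, adjusted p = 0.000146), and SFRP1, a secreted antagonist, by 1.68 ± 0.21 (SE, adjusted p = 0.000261). WNT10A, a ligand, read 9.18, 9.10 and 9.24 in the control arrays, 9.76, 9.55 and 9.56 in sh1 and 7.20, 7.23 and 7.12 in sh2, lowest in sh2, with -2.44 ± 0.12 (SE, adjusted p = 1.92e-07), and the receptor FZD7 was lower at -0.97 ± 0.12 (SE, adjusted p = 0.000251). Of the 12 calls, 5 (FZD3, LRP5, ROR2, LGR5 and RNF43) were lost without at least 1 array, with adjusted p up to 0.117.

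Interferon-stimulated genes were mostly lower in sh2 where they were called. Of 44 measured members 12 were called lower and 3 higher (34.1%), with a median of -0.29. The shares of all rows and of expressed genes were 12.3% and 18.7%. MX1, a GTPase that blocks viral replication, read 7.20, 7.31 and 7.73 in the control arrays, 9.59, 9.51 and 9.59 in sh1 and 6.88, 7.37 and 7.20 in sh2. Its sh2 arrays overlapped with the control and its sh1 arrays lay above, at a difference of -2.41 ± 0.17 (SE, adjusted p = 3.02e-06). IRF1, a transcription factor of the interferon response, read 7.89, 7.66 and 8.17 in the control arrays, 8.26, 8.09 and 7.96 in sh1 and 6.09, 6.71 and 6.46 in sh2, with sh2 beneath both other groups and -1.68 ± 0.18 (SE, adjusted p = 9.03e-05). IFI6 differed by -1.17 ± 0.18 (SE, adjusted p = 0.00142), HERC5, a ligase for the ubiquitin-like ISG15, by -1.03 ± 0.19 (SE, adjusted p = 0.00369), and IFIT1, which binds viral RNA, by -0.73 ± 0.14 (SE, adjusted p = 0.00526). In the other direction IFITM1 read 13.52, 13.57 and 13.41 in the control arrays, 14.66, 14.82 and 14.54 in sh1 and 15.43, 15.71 and 15.38 in sh2, highest in sh2, with 0.83 ± 0.14 (SE, adjusted p = 0.00189), and its neighbour IFITM2 followed at 0.74 ± 0.15 (SE, adjusted p = 0.00623). IFITM genes share sequence, so their values are uncertain as to copy. Without sh1 array 3 the list had 9 calls in place of 15, and without sh1 array 2 its median was -0.18. Of the 15 calls, 8 were kept without any single array. In antigen presentation TAP1, a peptide transporter, was lower at -0.80 ± 0.14 (SE, adjusted p = 0.00251), B2M differed by -0.37 (adjusted p = 0.0905), and 2 of 19 genes of the MHC class I list were called.

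Inflammatory cytokines and chemokines showed no common direction, with 5 of 37 called higher and 4 lower (24.3%, median 0.04). CCL2, a monocyte attractant, read 14.50, 14.63 and 14.43 in the control arrays, 12.41, 12.57 and 11.92 in sh1 and 14.80, 14.49 and 14.70 in sh2. The sh2 arrays lay at the level of the control and the sh1 arrays beneath, at 2.36 ± 0.17 (SE, adjusted p = 3.67e-06). IL18 was higher at 1.02 ± 0.18 (SE, adjusted p = 0.00267), CXCL16 lower at -1.64 ± 0.18 (SE, adjusted p = 0.000111) and CSF1, a macrophage growth factor, lower at -0.64 ± 0.14 (SE, adjusted p = 0.00967). The other 5 calls were lost without at least 1 array (adjusted p up to 0.143).

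Among the metabolic lists, those of creatine and lipid genes had the highest shares called. Of 8 measured genes of creatine synthesis, transport and phosphorylation 4 were called lower and 1 higher (62.5%), with a median of -0.57. The shares of all rows and of expressed genes were 12.3% and 18.7%. This creatine list is small, and the similar genes CKMT1A and CKMT1B count as 2 of its 5 calls. GATM, which makes the creatine precursor guanidinoacetate, read 7.07, 7.27 and 7.13 in the control arrays, 10.18, 10.40 and 10.25 in sh1 and 5.93, 6.04 and 6.43 in sh2. The clones lay on opposite sides of the control, with -4.14 ± 0.15 (SE, adjusted p = 2.57e-08). The mitochondrial creatine kinase genes CKMT1A and CKMT1B read 11.82, 11.62 and 11.70 in sh1 and 9.74, 9.65 and 9.42 in sh2, and 10.45, 10.36 and 10.40 in sh1 and 7.97, 8.25 and 7.06 in sh2. Both were lower in sh2, by differences of -2.11 ± 0.15 (SE, adjusted p = 3.57e-06) and -2.64 ± 0.25 (SE, adjusted p = 2.7e-05), but the copies are nearly identical and cannot be separated with certainty. GATM, CKMT1A and CKMT1B lie on chromosome 15, with neighbour medians of -0.56, -0.56 and -0.59. Of the expressed genes of that chromosome 47.5% were called. The part of the chromosome in the differences of these genes was not tested. GAMT, which completes creatine synthesis, was higher at 0.83 ± 0.18 (SE, adjusted p = 0.0105), and the transporter SLC6A8 was lower at -0.72, a call lost without sh1 array 2 or sh2 array 3 (adjusted p up to 0.0745).

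Fatty acid elongases differed in opposite directions. ELOVL6, which extends palmitate, read 7.45, 7.74 and 7.36 in the control arrays, 5.64, 5.55 and 5.74 in sh1 and 8.98, 9.18 and 9.19 in sh2, above the control in sh2 and below it in sh1, at 3.47 ± 0.14 (SE, adjusted p = 4.47e-08). ELOVL2, of long polyunsaturated chains, was higher at 1.09 ± 0.14 (SE, adjusted p = 0.000398). ELOVL7, of saturated long chains, read 4.24, 5.09 and 4.75 in the control arrays, 8.23, 8.46 and 8.54 in sh1 and 5.87, 5.61 and 5.47 in sh2, highest in sh1, at -2.76 ± 0.20 (SE, adjusted p = 4.11e-06). Fatty acid synthase, FASN, was lower at -0.71 ± 0.15 (SE, adjusted p = 0.00887) and the carboxylase ACACB at -1.07 ± 0.17 (SE, adjusted p = 0.00188), and the list had 4 of 21 called higher and 5 lower (42.9%, median -0.08). Cholesterol genes were called lower more often than higher, 7 of 20 against 2 (45.0%, median -0.28). The shares of all rows and of expressed genes were 12.3% and 18.7%. STARD4, a sterol carrier, read 7.81, 8.25 and 7.84 in sh1 and 6.50, 6.70 and 6.51 in sh2 and differed by -1.40 ± 0.17 (SE, adjusted p = 0.00025). ACAT2, which forms acetoacetyl-CoA, differed by -1.18 ± 0.14 (SE, adjusted p = 0.000234), and HMGCS1, the next step toward mevalonate, by -0.76 ± 0.12 (SE, adjusted p = 0.00152). IDI1, the isomerase of the isoprenoid route, was higher at 1.36 ± 0.14 (SE, adjusted p = 4.78e-05) and lies on the short arm of chromosome 10 with a neighbour median of 1.02. CYP51A1, EBP and SC5D were called lower and lost the call without at least 1 array (adjusted p up to 0.102).

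The hexosamine pathway makes UDP-N-acetylglucosamine and is named in the study's title. None of its 10 measured genes was called between the clones by limma, at a median of 0.03. GFPT1, the enzyme of the first and rate-limiting step, read 12.79, 12.85 and 13.18 in the control arrays, 13.77, 13.76 and 13.81 in sh1 and 13.86, 14.25 and 14.45 in sh2. Both clones lay above the control and the arrays of sh2 above those of sh1, but the difference of 0.41 ± 0.17 (SE, 95% confidence interval 0.04 to 0.77) did not pass (adjusted p = 0.16). GNPNAT1 differed by -0.34 (-0.64 to -0.04), GNPDA1 by 0.36 (0.01 to 0.72) and OGA, which removes O-linked N-acetylglucosamine, by -0.55 (-1.01 to -0.09). These 4 of the 10 had an unadjusted p under 0.05, a threshold that 4403 of the 17709 rows with a symbol passed.

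Respiratory genes, which work in the membrane that holds STOML2, gave few calls. None of 32 subunits of complex I was called by limma (median -0.01, 3 at an unadjusted p under 0.05), and 2 of 40 subunits of complexes II to V were called higher and 2 lower (10%, median -0.02). The ATP synthase subunit gene ATP5F1C was higher at 1.19 ± 0.14 (SE, adjusted p = 0.00017) and COX5A, of cytochrome oxidase, lower at -0.69 ± 0.12 (SE, adjusted p = 0.00241). ATP5F1C lies on the short arm of chromosome 10 and COX5A on chromosome 15, with neighbour medians of 1.02 and -0.48. Of 21 genes of mitochondrial dynamics 1 was called, GDAP1, at -0.70. Glycolysis and pentose phosphate enzymes had 4 of 27 called higher and 0 lower by limma (14.8%, and 8 and 1 at an unadjusted p under 0.05). That share is near the 12.3% of all rows and under the 18.7% of expressed genes. Among the higher ones were the hexokinases HK1 (0.59 ± 0.12 SE, adjusted p = 0.00976) and HK2 (0.90 ± 0.16 SE, adjusted p = 0.00307). PDK1, which restrains entry of pyruvate into mitochondria, was higher at 1.11 ± 0.14 (SE, adjusted p = 0.000347), and ADM, adrenomedullin, lower at -1.72 ± 0.17 (SE, adjusted p = 4.37e-05), both from a hypoxia list with 3 of 26 higher and 3 lower (23.1%).

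Stress and growth arrest genes were called in both directions. Of 30 ATF4 and amino acid stress targets 3 were called higher and 2 lower (16.7%, against 12.3% of all rows and 18.7% of expressed genes). GDF15, a stress cytokine, read 8.74, 8.84 and 8.68 in the control arrays, 12.17, 12.62 and 12.10 in sh1 and 10.70, 10.65 and 10.32 in sh2, above the control in both clones and highest in sh1, with -1.74 ± 0.16 (SE, adjusted p = 2.98e-05). STC2, stanniocalcin, was lower at -1.25 ± 0.13 (SE, adjusted p = 6.4e-05) and the mitochondrial folate enzyme ALDH1L2 higher at 1.16 ± 0.20 (SE, adjusted p = 0.00236). The array of sh1 numbered 2 stood apart for DDIT3, a stress transcription factor, which read 9.13, 11.12 and 9.21 in sh1 and 9.29, 9.26 and 8.70 in sh2 and was not called. Among 21 p53 targets 6 were called (28.6%), 1 higher, the death receptor FAS (0.92 ± 0.14 SE, adjusted p = 0.00122), and 5 lower, among them the inhibitor of cyclin kinases CDKN1A (-0.74 ± 0.14 SE, adjusted p = 0.004). Of the BCL2 family 1 of 20 (5%) was called, the proapoptotic PMAIP1, at -0.99 ± 0.14 (SE, adjusted p = 0.000809).

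Proliferation genes that were called were mostly lower in sh2. Of 40 measured DNA replication genes 7 were called lower and 2 higher (22.5%, median -0.30), and of 40 mitosis and spindle genes 5 lower and 1 higher (15%, median -0.16). The mitosis share is near the 12.3% of all rows and under the 18.7% of expressed genes. RRM2, a subunit of ribonucleotide reductase, read 14.55, 14.13 and 14.35 in sh1 and 13.47, 12.97 and 13.68 in sh2 and differed by -0.97 ± 0.18 (SE, adjusted p = 0.00486). CCNE1, cyclin E1, differed by -0.75 ± 0.16 (SE, adjusted p = 0.0109) and CCND2, cyclin D2, by -0.82 ± 0.18 (SE, adjusted p = 0.0113). The proliferation marker MKI67 differed by -0.26 (95% confidence interval -0.55 to 0.02). Of the 5 mitosis genes called lower, BUB1B, CCNB2, KIF23 and NUSAP1 lie on chromosome 15, with neighbour medians from -0.56 to -0.42. Only 2 of the 9 replication calls and 1 of the 6 mitosis calls were kept without any single array (adjusted p up to 0.176 and 0.167).

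On the list of ABC and organic anion transporters and on that of tetraspanins, each call was toward sh2. Their shares, given next, stand against 12.3% of all rows and 18.7% of expressed genes. Of 38 measured ABC and organic anion transporters 9 were called higher and 0 lower by limma (23.7%, median 0.04, and 10 and 2 at an unadjusted p under 0.05). SLCO1B3, an uptake transporter of bile acids and drugs, read 10.89, 10.90 and 10.89 in the control arrays, 4.65, 4.55 and 5.10 in sh1 and 7.53, 7.39 and 7.55 in sh2, with both clones under the control and sh1 lowest, at 2.72 ± 0.15 (SE, adjusted p = 5.38e-07). SLCO4A1 was higher at 2.04 ± 0.22 (SE, adjusted p = 8.25e-05), the lipid transporter ABCA3 at 1.57 ± 0.15 (SE, adjusted p = 3.61e-05) and the export pump ABCC3 at 1.28 ± 0.12 (SE, adjusted p = 2.52e-05). Tetraspanins had 7 of 31 higher and 0 lower by limma (22.6%, median 0.13, and 10 and 4 at an unadjusted p under 0.05). TSPAN13 read 12.24, 12.05 and 12.32 in the control arrays, 12.24, 12.55 and 12.22 in sh1 and 14.21, 14.21 and 14.26 in sh2, with sh1 at the level of the control and sh2 above, at 1.89 ± 0.13 (SE, adjusted p = 3.28e-06), and UPK1B, a uroplakin, differed by 1.75 ± 0.22 (SE, adjusted p = 0.000281). CD9, which binds integrins, was higher at 0.96 ± 0.17 (SE, adjusted p = 0.00322). Of 18 genes of gemcitabine uptake, activation and action 3 were called higher and 2 lower (27.8%). NT5C3A, a nucleotidase of pyrimidine monophosphates, was higher at 1.05 ± 0.12 (SE, adjusted p = 0.000154), and RRM2, given above, was lower.

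Genes of the classical pancreatic subtype, a set that marks better differentiated tumours, were called toward sh2 in 4 of 33 cases and toward sh1 in 0 by limma (12.1%, close to the 12.3% of all rows, and 7 and 1 at an unadjusted p under 0.05). HNF4G, a nuclear receptor of digestive epithelium, read 5.08, 5.55 and 5.44 in the control arrays, 5.13, 5.38 and 5.41 in sh1 and 8.71, 8.72 and 8.84 in sh2. Sh1 and control arrays overlapped and sh2 stood above, at 3.45 ± 0.15 (SE, adjusted p = 8.87e-08). AGR2, a disulfide isomerase of mucus-secreting cells, read 8.76, 8.43 and 8.26 in the control arrays, 10.64, 10.60 and 10.95 in sh1 and 13.04, 13.23 and 13.22 in sh2, lowest in the control and highest in sh2, with 2.43 ± 0.16 (SE, adjusted p = 1.71e-06) between the clones. AGR2 and TSPAN13 are neighbours on chromosome 7 and share a neighbour median of 0.57. TSPAN8 was higher at 1.48 ± 0.26 (SE, adjusted p = 0.00304), from sh1 levels under the lower quartile. GATA6 was called higher at 0.75 and lost the call without 3 of the 6 arrays in turn (adjusted p up to 0.0755). Of the 33 members of the classical set, 10 had means at or under the lower quartile in all groups. In the basal-like set 3 of 24 were higher and 2 lower (20.8%), led by the protease CTSV at -2.04 ± 0.16 (SE, adjusted p = 8.43e-06). Potassium channel subunits had 4 of 63 higher and 5 lower (14.3%), mucins 1 of 14 higher (MUC15, 1.76) and 1 lower (MUC3A, -0.75), and HOX cluster genes 0 of 23 by limma (1 at an unadjusted p under 0.05).

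**Figure D4:**
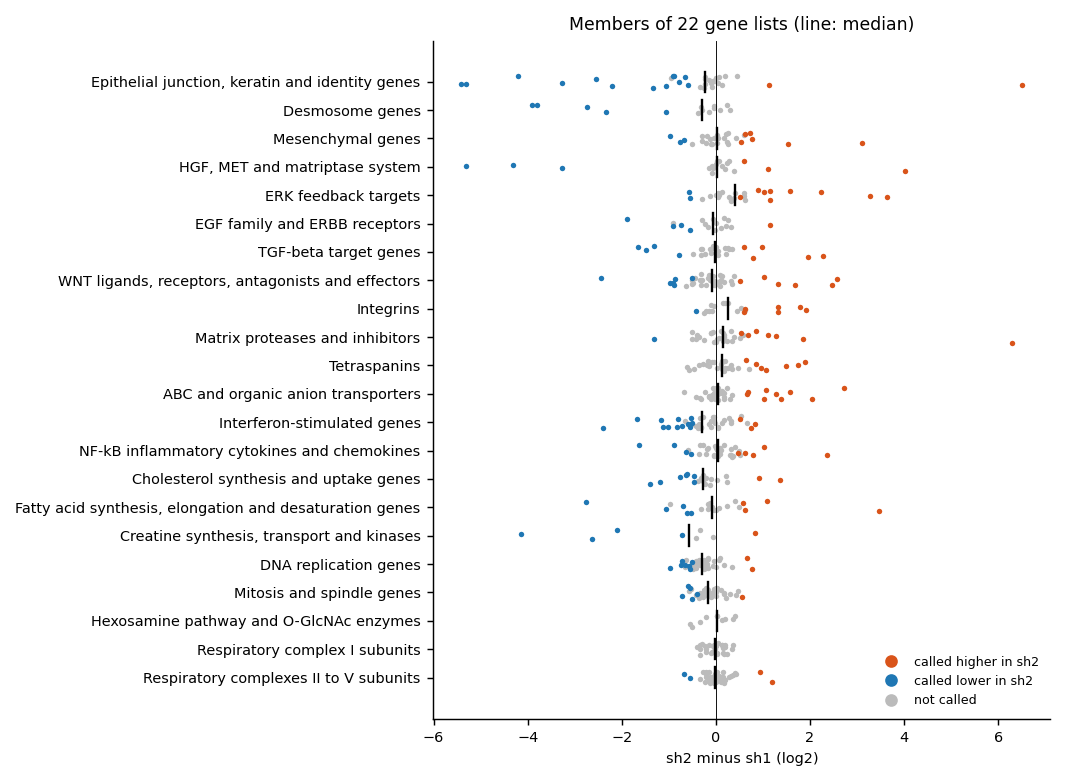
Difference between sh2 and sh1 (log2, horizontal) of every measured member of 22 gene lists; each point is a gene, orange called higher in sh2, blue called lower, grey not called, and black lines are list medians. Epithelial and desmosome members reach far to the left, but the epithelial member furthest from 0 is MAL2, on the right at 6.51. ERK feedback members lean right (median 0.40), and complex I members stay near 0 (median -0.01).

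Calls were not spread evenly along the genome. Among 9366 expressed genes with a position, that is with a mean above 6.61, 1751 were called (18.7%), 915 higher (9.77%) and 836 lower (8.93%). Stretches named below are runs of at least 10 expressed genes whose neighbour medians were all 0.4 or more in size, in 1 direction. Because the same differences set their bounds, the counts and medians inside them are raised by this choice. On the short arm of chromosome 10, from TUBB8 to ZNF37A (46455 to 38150293), 69 of 77 expressed genes were called higher in sh2, the other 8 gave no call, and their median difference was 1.08. Set against the mean of the control arrays, the medians of the region were -1.02, -1.12 and -1.06 in the sh1 arrays and 0.06, 0.01 and 0.09 in the sh2 arrays. The region was thus at the control level in sh2 and under it in sh1. ZEB1, VIM, ITGB1, NRP1, YME1L1, IDI1, ATP5F1C and PFKP lie in it.

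Chromosome 15 differed over most of its length. Of its 324 expressed genes 150 were called lower and 4 higher (47.5%), 295 (91.0%) lay below 0, and the median was -0.48, or -0.31 over all 520 of its rows. In the stretch from ARPP19 to PDE8A (52547045 to 85139142) the medians against the control mean were 0.73, 0.67 and 0.75 in sh1 and 0.22, 0.22 and 0.21 in sh2. In the stretch from HERC2P3 to DTWD1 (20408396 to 49656232) they were 0.72, 0.70 and 0.78 in sh1 and 0.23, 0.23 and 0.26 in sh2. Both clones were thus above the control there, sh1 more so. On chromosome 13, 37 of 161 expressed genes were called higher and the others gave no call (median 0.25), and on chromosome 5, 33 of 433 higher and 76 lower (median -0.24). Over all their rows these medians were 0.17 and -0.10. A short stretch of chromosome 7 from ANKMY2 to CDCA7L (16599779 to 21945899) had 6 of 11 genes called higher and 3 below 0. Its median was 0.77, and 0.54 to 0.96 without 1 array each. AGR2, TSPAN13 and ITGB8 lie in this stretch, which was bounded by the same differences. DNA copy number was not analysed here, and its part in these regional differences was not tested. Among the 30 genes with the widest differences, neighbour medians ran from -0.56 for GATM to 0.36 for ETV1. They were -0.54 for SPINT1 and -0.48 for NEO1, both on chromosome 15, and nearer 0 for others, such as EPCAM (-0.02) and MAL2 (0.10). The part of regions in the differences of these genes was not tested.

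**Figure D5:**
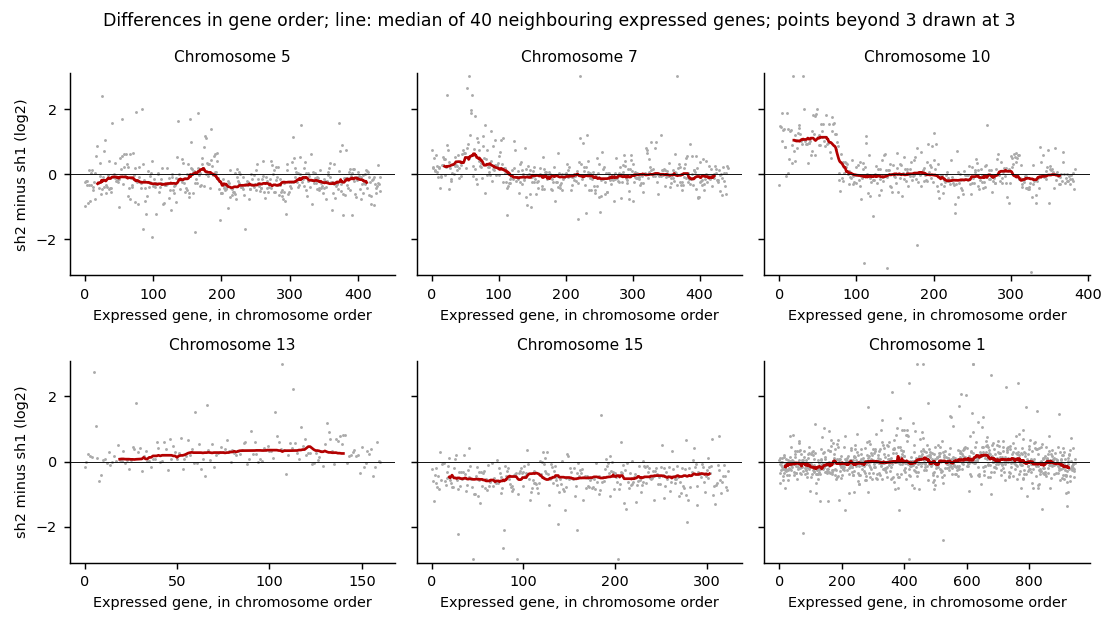
Difference between sh2 and sh1 (log2, vertical) of expressed genes in their order along 6 chromosomes (horizontal, rank of the gene); grey points are genes, with those beyond 3 in size drawn at 3, and the red line is the median of 40 neighbouring genes. The line stays near 1.08 over the start of chromosome 10, near -0.48 along chromosome 15 and near 0 along chromosome 1.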

How the data were processed

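Total RNA of AsPC-1 cells, measured in 9 samples, was labelled with biotin and hybridised to whole-transcript arrays. The authors deposited 1 table of log2 signals, which they made with Transcriptome Analysis Console per the submitters' processing notes. The sources used here give neither its version and settings nor detection calls. The scale was read from the range and from the near-equal array medians, and values were used as deposited.

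Groups followed the sample titles. A model over all 9 arrays (limma 3.58.1 in R 4.3.3, lmFit and eBayes) gave sh2 minus sh1, with p-values adjusted by Benjamini-Hochberg over all 21448 rows and a threshold of 0.05. The number of arrays limits the precision. Gene symbols and GRCh38.p14 positions came from the platform annotation and RefSeq, and a gene with several rows was read from that with the highest mean. The neighbour median of a gene is the median difference of its 40 nearest expressed genes, those with a mean above 6.61.

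Named genes are STOML2, the 15 widest calls in each direction without overlap of arrays, and from the lists described up to 6 called members with the largest difference, along with members whose role the text explains. Some lists carry more names, chosen after their values were seen. The comparison, members and lists were chosen with earlier results of these data known, and the lists give no independent support. Numbers in the titles were not taken as pairs, since deviations of sh1 and sh2 arrays with the same number correlated at 0.122, 0.00592 and -0.018. Scaling, filter, prior, samples, block, adjustment, threshold, rows per gene and each array left out were varied. The pipeline was tested on simulated data.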

Additional observations from a re-analysis of the deposited data

Results flagged for a closer look

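For 12 of the 30 genes with the widest differences, every sh1 array lay on 1 side of all control arrays and every sh2 array on the other. The control was also grown from 1 single colony, so this order does not show that either hairpin clone changed. Only the difference between sh2 and sh1 was tested, and the limma fit called it for each of these genes. Higher in sh2 and lower in sh1 than the control were the adhesion gene NCAM1 (sh2 minus sh1 of 6.88), the zinc finger gene ZNF385D (5.36), the synaptotagmins SYT1 (4.18) and SYT9 (3.79) and the deaminase gene APOBEC3B (3.86). Lower in sh2 and higher in sh1 were the creatine synthesis gene GATM (-4.14), the epimerase gene DSE (-4.13), ATRNL1 (-4.12), MAP2 (-4.11), the channel gene MCOLN3 (-3.87), desmoplakin, DSP (-3.80), and the myosin gene MYH10 (-3.80). These genes were selected for a wide difference between the clones, so the count of 12 is a description. SYT1 in sh1 and MAP2 in sh1 lay close to the control, at -0.41 and 0.32 from its mean.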

How the results depend on the processing

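Quantile or median scaling, leaving out rows in the lower quartile, a mean-variance trend, adjusting over rows with a symbol only, and leaving out regional runs (an alternative chosen after seeing the data) gave counts of called rows within 1.5 times of 2186, with 2729 under the trend. At an adjusted p under 0.01 there were 1216 calls, 666 higher and 550 lower. With the replicate number as a block 2128 rows were called, 700 of them at 2-fold or more, and STOML2 stayed at -0.59 (adjusted p = 0.0314), although the numbers do not pair the arrays. STOML2 was -0.59 and no longer passed with only the sh1 and sh2 arrays, and -0.72 to -0.40 without 1 array each. Without 1 array each, the medians ran from -0.32 to -0.14 for epithelial genes, -0.39 to -0.21 for desmosome genes and -0.30 to -0.18 for interferon-stimulated genes, of which 9 to 13 were called. The desmosome median was -0.73 without rows in the lower quartile. Over expressed genes only, the medians of chromosomes 5, 13 and 15 were -0.24, 0.25 and -0.48, and without 1 array each those over all rows ran from -0.13 to -0.10 on chromosome 5 and from -0.33 to -0.29 on chromosome 15. Why these values moved was not tested. Of single genes named, 369 of 3333 refits lost the call and none changed direction. Signals near 4.21 carry little above background, and 48 of the calls of at least 2-fold have 1 clone there.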
